A study of Mus musculus with 14 samples.

Results

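The core circadian clock genes were followed in sorted heart muscle cells of mice given AAV-Ryr2gRNA as newborns, set against mice given AAV-Cre. The set held 10 genes, picked by symbol among the 23337 genes of the count table, by a rule that uses no measured value: Arntl, Clock, Per1, Per2, Per3, Cry1, Cry2, Nr1d1, Nr1d2 and Dbp. All 10 were present and all 10 passed the filter on low counts, among 11170 genes tested. None of the 10 differed between the groups past the threshold, against 28.2% of all genes tested. Of 11 tested partner genes of the clock, 1 (Hlf) fell, against 13.7% of all genes called lower.

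Rosa-Cas9GFP mice were injected on postnatal day 1 with an adeno-associated virus (AAV). The KO group received AAV-Ryr2gRNA (7 libraries) and the Ctrl group AAV-Cre (7 libraries). At 4 weeks of age the cardiomyocytes were isolated by Langendorff perfusion, purified by FACS and used for SMART-Seq v4 sequencing of poly(A) RNA, which does not mark the strand. Both groups thus share the strain, the Cas9 allele, the injection and the cell isolation. Whether the guide virus also carried Cre, the promoters on the viruses, the position of the guide and whether each library came from its own animal are not stated in these sources. The p-values therefore measure the spread between these libraries, which may be technical in part. The hour of collection is not given either, so for genes with a daily rhythm a difference between groups and a difference in the hour of collection cannot be told apart.

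The libraries held between 5689335 and 13165662 counts. Ryr2, the targeted gene, which encodes the calcium release channel of the sarcoplasmic reticulum, was between 225 and 371 (median 324) CPM (counts scaled to a common library size) in KO libraries and between 602 and 763 (median 649) CPM in Ctrl libraries, a log2 difference of -1.13 (SE 0.0977, adjusted p = 3.3e-07 by the quasi-likelihood test of edgeR). The 8 cardiomyocyte markers together held 67720 to 92778 CPM in KO libraries and 84592 to 99982 CPM in Ctrl libraries. They were the most abundant marker list, and 5 of the 8 (Ckm, Pln, Tnni3, Myl2 and Tnnt2) fell in the KO group. In this fit of 14 libraries, 13.7% of all tested genes were called lower and 14.5% higher, against which the marker counts stand. Of the markers of other cells, 8 fibroblast markers were summed, 7 of them tested. They held 162 to 1233 CPM in KO libraries and 187 to 604 CPM in Ctrl libraries. The 8 endothelial markers summed to 257 to 923 CPM in KO libraries and 322 to 863 CPM in Ctrl libraries, and no gene of either list was called. With a term for library indices 7 to 10, described below, 5 fibroblast and 0 endothelial markers were called, all higher. Among the 10 libraries outside these indices 0 fibroblast and 4 endothelial markers were called, the 4 lower, and among the 4 within them 6 and 1, all higher. Macrophage markers summed to 59.3 to 434 CPM in KO libraries and 23.3 to 113 CPM in Ctrl libraries, and 3 of 9 tested (Lyz2, Emr1 and C1qb) rose, a count of 1 without any 1 of KO replicates 4 and 5 or Ctrl replicates 1, 2, 3, 6 and 7, and of 5 without any 1 of KO replicates 1 and 7 or Ctrl replicates 4 and 5. Among the other lists, 3 of 8 pericyte and smooth muscle markers rose (Acta2, Cspg4 and Tagln) and Abcc9 fell (1 called within library indices 7 to 10 alone), Nppa alone rose among 5 tested atrial markers, and the 1 tested erythroid marker was not called. Tagln lost its call without any 1 of KO replicates 1, 4 and 6 or Ctrl replicates 1, 2, 3 and 7 (adjusted p of 0.059 to 0.074, edgeR). In bulk RNA, fewer cells of a type and less RNA per cell cannot be told apart. The first principal component (37.9% of the variance) separated the groups, and the second set apart 4 libraries with library indices 7 to 10, replicates 4 and 5 of each group. The labels name no batch for them.

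The mammalian clock is a transcriptional feedback loop that runs in most cells, cardiomyocytes included. BMAL1 (the product of Arntl) and CLOCK pair up and activate genes that carry E-boxes in their control regions, among them the Per, Cry and Nr1d genes and Dbp. The PER and CRY proteins then accumulate and repress BMAL1 and CLOCK, while the REV-ERB proteins encoded by Nr1d1 and Nr1d2 repress Arntl through ROR response elements (RORE) that the ROR proteins activate. In the heart this loop is known to time the expression of metabolic enzymes and ion channels over the day.

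To show what these control elements look like in the genes that carried the main observations below, the promoter windows of 9 of the 10 genes were read from RefSeq (build GRCm38.p6, of which mm10 is the same primary assembly). Each window holds 250 bases before the annotated start and 50 after it. Windows of 5 genes are printed, each 5′ to 3′ on the strand of its gene, with matches to the searched letters in capitals. Per3 and Cry2 had the highest correlation of any pair, among KO libraries, without passing the threshold after adjustment. Of the 9 genes, Per1 and Cry1 are the only ones with a canonical E-box in these windows, and Arntl is the target of the RORE arm. Per2 had no window and was not searched. Per1 has a further window, chr11:69099902-69100201, which held no match and is not printed.
Per3 promoter, chr4:151044616-151044915, minus strand, 2 D-boxes: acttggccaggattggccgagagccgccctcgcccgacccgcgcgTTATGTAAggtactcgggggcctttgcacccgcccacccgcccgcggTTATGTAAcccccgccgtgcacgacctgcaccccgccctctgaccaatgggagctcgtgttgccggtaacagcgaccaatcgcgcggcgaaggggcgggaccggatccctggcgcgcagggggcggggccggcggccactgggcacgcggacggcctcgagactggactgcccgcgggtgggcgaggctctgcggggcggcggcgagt
Cry2 promoter, chr2:92434020-92434319, minus strand, no match: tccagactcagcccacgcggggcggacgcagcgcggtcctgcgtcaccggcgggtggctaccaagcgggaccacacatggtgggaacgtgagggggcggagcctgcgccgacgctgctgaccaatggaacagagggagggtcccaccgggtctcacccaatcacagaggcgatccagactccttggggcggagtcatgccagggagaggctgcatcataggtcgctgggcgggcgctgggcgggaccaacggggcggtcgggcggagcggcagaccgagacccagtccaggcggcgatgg
Per1 promoter, chr11:69098699-69098998, plus strand, 1 E-box: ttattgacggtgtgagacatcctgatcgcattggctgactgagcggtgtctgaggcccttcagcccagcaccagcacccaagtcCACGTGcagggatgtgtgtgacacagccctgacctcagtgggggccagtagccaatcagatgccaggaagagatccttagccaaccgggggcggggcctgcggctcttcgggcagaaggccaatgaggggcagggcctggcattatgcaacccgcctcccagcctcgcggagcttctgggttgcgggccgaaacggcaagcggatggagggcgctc
Cry1 promoter, chr10:85185005-85185304, minus strand, 1 E-box: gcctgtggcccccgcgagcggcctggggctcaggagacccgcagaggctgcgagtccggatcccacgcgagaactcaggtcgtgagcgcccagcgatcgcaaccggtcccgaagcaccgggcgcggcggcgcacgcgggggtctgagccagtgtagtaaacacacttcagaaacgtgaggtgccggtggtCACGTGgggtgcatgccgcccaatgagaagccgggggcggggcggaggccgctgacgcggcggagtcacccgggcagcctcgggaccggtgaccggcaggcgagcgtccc
Arntl promoter of the downstream start, chr7:113207261-113207560, plus strand, 1 RORE core: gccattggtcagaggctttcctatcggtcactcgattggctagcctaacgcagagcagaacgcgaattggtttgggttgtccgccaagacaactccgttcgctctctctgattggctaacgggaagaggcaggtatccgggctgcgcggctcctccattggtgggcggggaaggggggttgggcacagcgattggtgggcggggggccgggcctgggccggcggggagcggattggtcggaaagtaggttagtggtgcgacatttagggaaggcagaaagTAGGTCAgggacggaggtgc

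The searched letters were the E-box CACGTG, the RORE cores TAGGTCA and TGGGTCA, the D-boxes TTATGTAA and TTACGTAA and the cyclic AMP response element TGACGTCA, on both strands. No motif of these contains another. The window of Per3 held TTATGTAA 205 and 158 bases before the start, and 0.938% of all 32851 promoter windows in the table held this motif. The E-box stood 166 bases before the upstream start of Per1 and 60 bases before the start of Cry1, against 7.15% of all windows with a match. TAGGTCA stood 31 bases after the downstream start of Arntl, a motif found in 2.61% of all windows. The windows of Clock, Cry2, Nr1d1, Nr1d2 and Dbp held none of these letters, which says nothing of sites outside 300 bases. These are matches of letters and not measured binding sites.

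The comparison asks whether transcripts of the clock differed in cardiomyocytes after Ryr2 was targeted. Over the 10 clock genes, 0 were called at an adjusted p under 0.05 (edgeR quasi-likelihood test with Benjamini-Hochberg adjustment over all 11170 genes), against 28.2% of all genes tested. At an unadjusted p under 0.05 there was 1, Cry2. The groups overlapped in all 10 genes, whereas 10.5% of tested genes had no overlap. The log2 fold change, KO minus Ctrl, was negative for 6 genes and positive for 4, with a median of -0.12 against 0.01 over all genes tested. A p that misses the threshold does not show that a gene was equal in both groups, and the 95% intervals below give the range of differences these libraries leave. With DESeq2 the count was also 0, with limma-voom it was 1 (Cry2), and in the authors' deposited table it was 0, where the smallest adjusted p among the 10 was 0.0682 for Cry2.

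**Figure D1:**
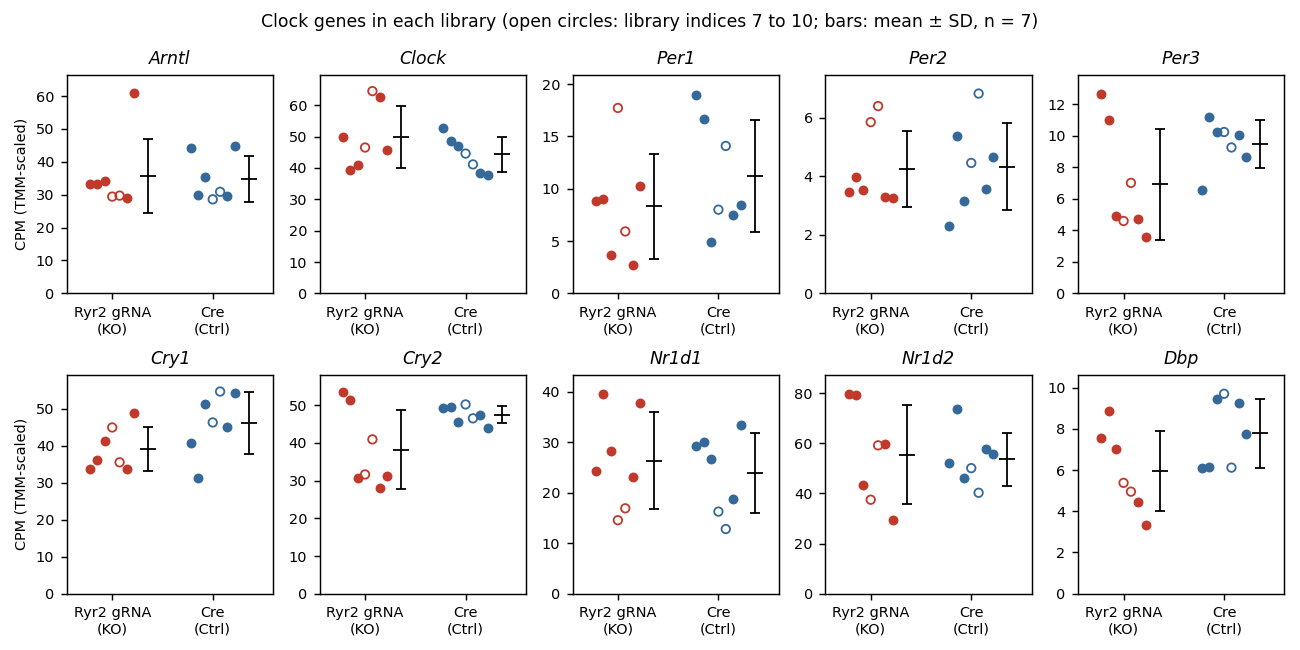
Values of the 10 clock genes in CPM in each of 7 KO libraries (left, red) and 7 Ctrl libraries (right, blue), with mean and SD beside the points; open circles mark library indices 7 to 10. The groups overlap in every panel, and Cry2 shows 5 KO libraries under and 2 KO libraries over a narrow band of Ctrl libraries.

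In the activating limb neither Arntl nor Clock was called. Arntl, on chromosome 7 (113207465 to 113314126, plus strand, mm10), was between 28.9 and 60.9 CPM (median 33.3) in KO libraries and between 28.6 and 44.9 CPM (median 30.9) in Ctrl libraries. KO replicate 7 alone held the 60.9 CPM, and the other 6 KO libraries stayed between 28.9 and 34.0 CPM, inside the range of the Ctrl libraries. On the log2 scale the groups differed by 0.04 (SE 0.166, 95% interval -0.31 to 0.39, adjusted p = 0.88, edgeR), and it was -0.15 without KO replicate 7. Clock, on chromosome 5 (76212177 to 76304548, minus strand), was between 39.4 and 64.5 CPM (median 46.5) in KO libraries and between 37.8 and 52.7 CPM (median 44.6) in Ctrl libraries. KO replicates 5 and 6, with 64.5 and 62.6 CPM, lay above every Ctrl library, and the other 5 lay within the Ctrl range. The log2 fold change of Clock was 0.17 (SE 0.116, 95% interval -0.08 to 0.41, adjusted p = 0.31, edgeR).

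Among the period genes, whose proteins carry the repression of the loop together with the cryptochromes, Per3 was lower in most KO libraries. Per3, on chromosome 4 (151003655 to 151044622, minus strand), was between 3.60 and 12.6 CPM (median 4.88) in KO libraries and between 6.58 and 11.2 CPM (median 10.1) in Ctrl libraries. KO replicates 3, 4, 6 and 7 lay below every Ctrl library with 3.60 to 4.88 CPM, and KO replicate 1 lay above every Ctrl library with 12.6 CPM. The values of KO replicates 2 and 5 were inside the Ctrl range. Its log2 fold change came to -0.46 (SE 0.250, 95% interval -0.99 to 0.07, adjusted p = 0.20, edgeR). Without KO replicate 1 it was -0.66 with an adjusted p of 0.040, so that this library decides the call.

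Per1, which responds quickly to glucocorticoids and cyclic AMP, was the most variable member in both groups. It lies on chromosome 11 (69098956 to 69109957, plus strand). Per1 was between 2.73 and 17.7 CPM (median 8.84) in KO libraries and between 4.89 and 18.9 CPM (median 8.46) in Ctrl libraries. KO replicates 3 and 6, with 3.66 and 2.73 CPM, were under every Ctrl library, and KO replicate 4 held the 17.7 CPM. The difference of -0.46 on the log2 scale had a wide 95% interval of -1.22 to 0.30 (SE 0.360, adjusted p = 0.39, edgeR). It was -0.72 among the 10 libraries outside indices 7 to 10 and 0.02 within these 4, and neither value was called.

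Per2, on chromosome 1 (91415982 to 91459328, minus strand), was the least abundant, with counts of 20 to 53 per library. It was between 3.25 and 6.40 CPM (median 3.52) in KO libraries and between 2.30 and 6.83 CPM (median 4.46) in Ctrl libraries. The highest library of each group, replicate 5 in both, was one of indices 7 to 10. For Per2 the log2 fold change was -0.02 (SE 0.240, 95% interval -0.52 to 0.49, adjusted p = 0.97, edgeR). Differences of either sign lie inside that interval.

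The cryptochromes, flavoprotein repressors of BMAL1 and CLOCK, were both lower on average in the KO group without reaching the threshold. Cry1, on chromosome 10 (85131700 to 85185054, minus strand), was between 33.6 and 48.8 CPM (median 36.3) in KO libraries and between 31.3 and 54.7 CPM (median 46.3) in Ctrl libraries. In 6 of 7 KO libraries Cry1 was under the Ctrl median, and Ctrl replicate 2 held the lowest value of all. Its estimate was -0.23 on the log2 scale (SE 0.119, 95% interval -0.48 to 0.02, adjusted p = 0.17, edgeR). Without Ctrl replicate 2 it was -0.31 with an adjusted p of 0.036.

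Cry2, on chromosome 2 (92403647 to 92434069, minus strand), showed the most unusual pattern of the set. Its values in KO replicates 1 to 7 were 53.5, 51.4, 30.6, 31.6, 41.0, 28.1 and 31.3 CPM, and in Ctrl replicates 1 to 7 they were 49.4, 49.5, 45.6, 50.2, 46.5, 47.4 and 44.0 CPM. No KO library fell inside the Ctrl range: 5 were below all Ctrl libraries and 2 were above all of them. For Cry2 the log2 fold change was -0.32 (SE 0.132, 95% interval -0.60 to -0.04, unadjusted p = 0.028, adjusted p = 0.084, edgeR). The adjusted p was 0.016 without KO replicate 1 and 0.024 without KO replicate 2, with log2 fold changes of -0.41 and -0.40. With limma-voom the log2 fold change was -0.37 and the adjusted p 0.040. Cry2 shares 149 bases of exon with D930015M05Rik on the opposite strand, and unstranded reads from the shared bases cannot be told apart.

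In the stabilising loop neither Nr1d1 nor Nr1d2 was called. Nr1d1, on chromosome 11 (98767935 to 98775242, minus strand), encodes REV-ERB alpha and was between 14.6 and 39.6 CPM (median 24.3) in KO libraries and between 12.8 and 33.5 CPM (median 26.6) in Ctrl libraries. The lowest libraries of both groups were those of indices 7 to 10, with 14.6 and 16.9 CPM in KO replicates 4 and 5 and 16.3 and 12.8 CPM in Ctrl replicates 4 and 5. Between the groups Nr1d1 differed by 0.15 on the log2 scale (SE 0.239, 95% interval -0.36 to 0.65, adjusted p = 0.70, edgeR), and it was 0.15 outside these indices and 0.08 within them. The same 4 libraries held the highest sums of fibroblast markers in their groups, 1233 and 1121 CPM in the KO libraries and 596 and 604 CPM in the Ctrl libraries, and the part of this in the levels of Nr1d1 was not tested.

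Nr1d2, on chromosome 14 (18204056 to 18239106, minus strand), encodes REV-ERB beta. It was between 29.2 and 79.9 CPM (median 59.2) in KO libraries and between 40.3 and 73.8 CPM (median 52.2) in Ctrl libraries. KO replicates 1 and 2 lay above every Ctrl library with 79.9 and 79.3 CPM, and KO replicates 4 and 7 lay below every Ctrl library with 37.5 and 29.2 CPM. The log2 fold change was 0.04 (SE 0.198, 95% interval -0.37 to 0.46, adjusted p = 0.90, edgeR), so that the group means were close while the KO libraries reached further out on both sides.

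Dbp, the output factor of the set, is a PAR bZIP protein that activates genes with D-boxes. It lies on chromosome 7 (45705247 to 45710203, plus strand). Dbp was between 3.34 and 8.87 CPM (median 5.38) in KO libraries and between 6.09 and 9.71 CPM (median 7.77) in Ctrl libraries. KO replicates 4, 5, 6 and 7 lay below every Ctrl library and the other 3 lay within the Ctrl range. Its log2 fold change came to -0.39 (SE 0.205, 95% interval -0.83 to 0.04, adjusted p = 0.17, edgeR). Dbp shares 539 bases of exon with Sphk2 on the opposite strand, so part of its reads may come from that gene.

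**Figure D2:**
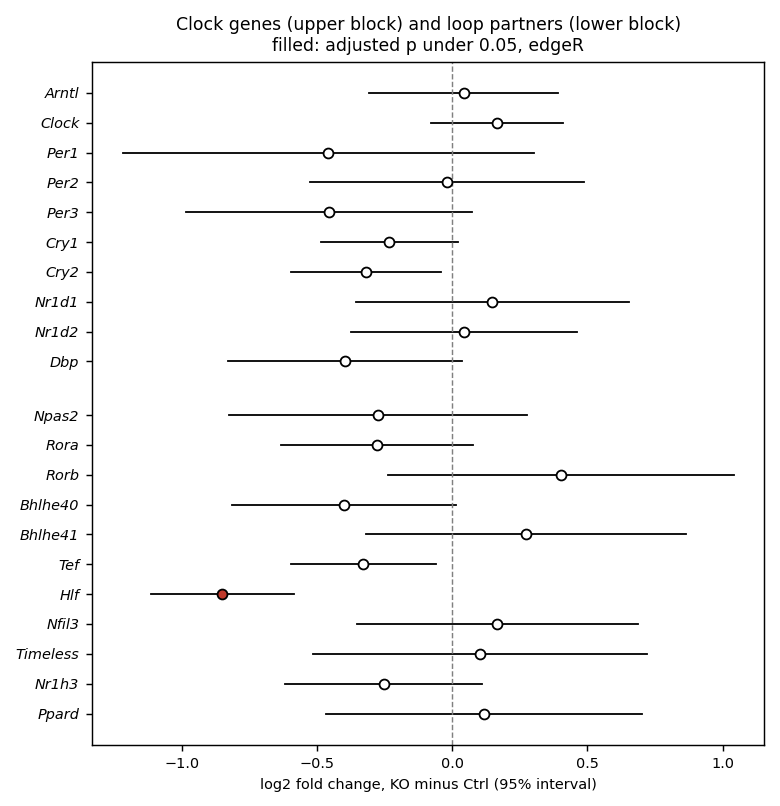
Log2 fold change, KO minus Ctrl, with its 95% interval for the 10 clock genes (upper block) and 11 loop partners (lower block); filled points have an adjusted p under 0.05 in edgeR. All 10 clock genes have open points, and Hlf (-0.85) is the only filled one.

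The wider loop was read from a list of 13 partners, of which 11 were tested (Arntl2 and Gm129, also called Ciart, were too low). The 11 include the nuclear receptor genes Nr1h3 and Ppard, which are not components of the feedback loop described above. Of the 11, 1 fell (Hlf) and 0 rose (no higher partner had an unadjusted p under 0.05), against 13.7% of all tested genes called lower and 14.5% called higher. The median log2 fold change of the 11 was -0.25, which is the value of Nr1h3. Hlf, a PAR bZIP factor of the same family as Dbp, lies on chromosome 11 (90336535 to 90390917, minus strand). It was between 11.2 and 23.0 CPM (median 17.1) in KO libraries and between 26.6 and 34.8 CPM (median 29.6) in Ctrl libraries. All 7 KO libraries were below all 7 Ctrl libraries, with a log2 fold change of -0.85 (SE 0.125, adjusted p = 8.2e-05, edgeR). It was called under all 24 alternative settings and left-out libraries that were run.

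The third PAR bZIP gene, Tef, was between 86.3 and 157 CPM (median 113) in KO libraries and between 122 and 174 CPM (median 147) in Ctrl libraries. Tef differed by -0.33 on the log2 scale (SE 0.126, adjusted p = 0.063, edgeR). KO replicates 1 and 2 held 157 and 153 CPM, inside the Ctrl range, and 4 of the other KO libraries were below all Ctrl libraries. Tef was called with DESeq2 (adjusted p = 0.041), limma-voom (adjusted p = 0.046) and in the authors' deposited table (adjusted p = 0.0425). It was also called without KO replicate 1 (adjusted p = 0.020), KO replicate 2 (adjusted p = 0.024) or Ctrl replicate 5 (adjusted p = 0.040).

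Rora and Rorb, which encode activators at RORE sites, were not called. Rora averaged 17.0 CPM in KO libraries and 20.5 CPM in Ctrl libraries, with a log2 fold change of -0.28 (adjusted p = 0.25, edgeR, and 0.034 without KO replicate 2). Rorb averaged 2.82 CPM in KO libraries and 2.16 CPM in Ctrl libraries, with a log2 fold change of 0.40 (adjusted p = 0.36, edgeR). Of the E-box repressors, Bhlhe40 averaged 64.5 CPM in KO libraries and 84.9 CPM in Ctrl libraries, with a log2 fold change of -0.40 (adjusted p = 0.15, edgeR, and 0.037 without Ctrl replicate 4). Bhlhe41 was low throughout, with 0.878 to 2.44 CPM in KO libraries and 0.631 to 2.49 CPM in Ctrl libraries. Nfil3, which represses at D-boxes, was between 44.8 and 173 CPM in KO libraries and between 56.0 and 116 CPM in Ctrl libraries, and KO replicate 7 held the 173 CPM. The log2 fold changes of the remaining partners were -0.27 for Npas2, the paralog of Clock, -0.25 for Nr1h3, 0.17 for Nfil3, 0.27 for Bhlhe41, 0.12 for Ppard and 0.10 for Timeless, with no adjusted p under 0.05.

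**Figure D3:**
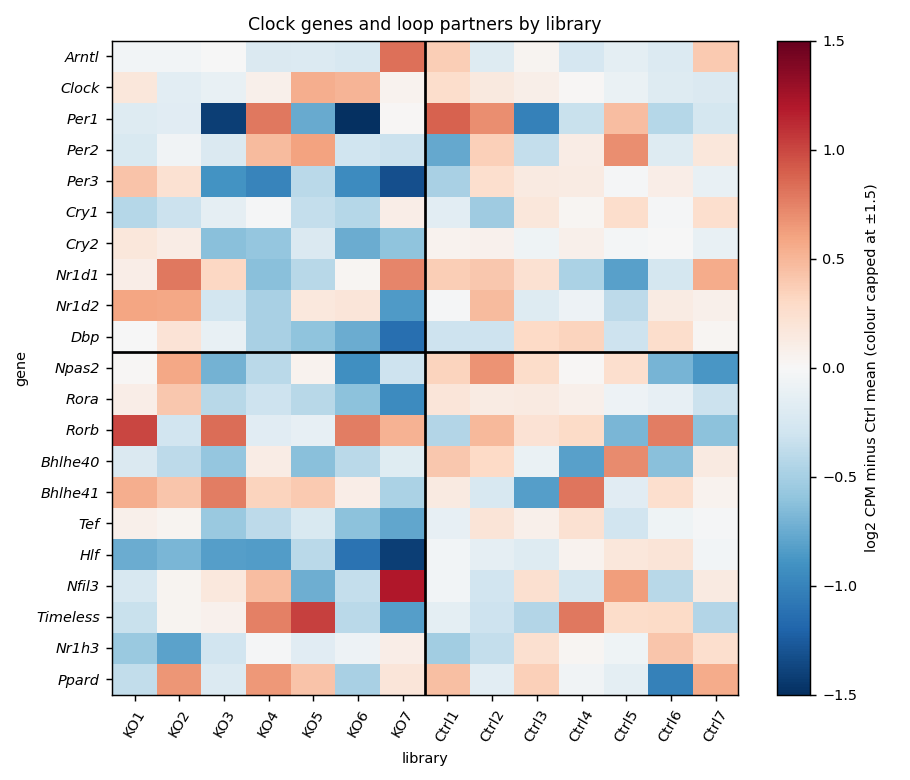
Log2 CPM of the 10 clock genes (above the line) and 11 partners (below it) in each library, KO left and Ctrl right, as the difference from the Ctrl mean of the gene. Hlf is blue in all 7 KO libraries, Per3, Cry2 and Tef are blue in KO replicates 3 to 7 and pale to red in KO replicates 1 and 2, and KO replicate 7 holds the extreme colours of Arntl and Nfil3.

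The ratio of its spread in KO libraries to that in Ctrl libraries set Cry2 apart more than its mean did. The SD of log2 CPM of Cry2 was 5.39 times as large over KO libraries as over Ctrl libraries, and 0.125% of the tested genes had a larger ratio. That SD was 0.378 over KO libraries and 0.0700 over Ctrl libraries. The medians over all tested genes were 0.207 and 0.185. Per1, Per2, Per3, Nr1d1, Nr1d2 and Dbp had a larger SD over KO libraries than Cry2. In Ctrl libraries the coefficient of variation of Cry2 was 4.85%, under the 5.51% from counting reads alone. The ratio of Cry2 thus rests in large part on a narrow Ctrl group. The ratio was 2.70 for Per3, and 2.33% of tested genes had a larger one. For Nr1d2, 8.38% of tested genes had a larger ratio. Over all tested genes the median ratio was 1.13, and 61.25% had a ratio over 1, so a wider spread in KO libraries was common. For Cry1 and Per2 the ratio was below 1, at 0.750 and 0.792. These ratios are descriptions without a test.

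**Figure D4:**
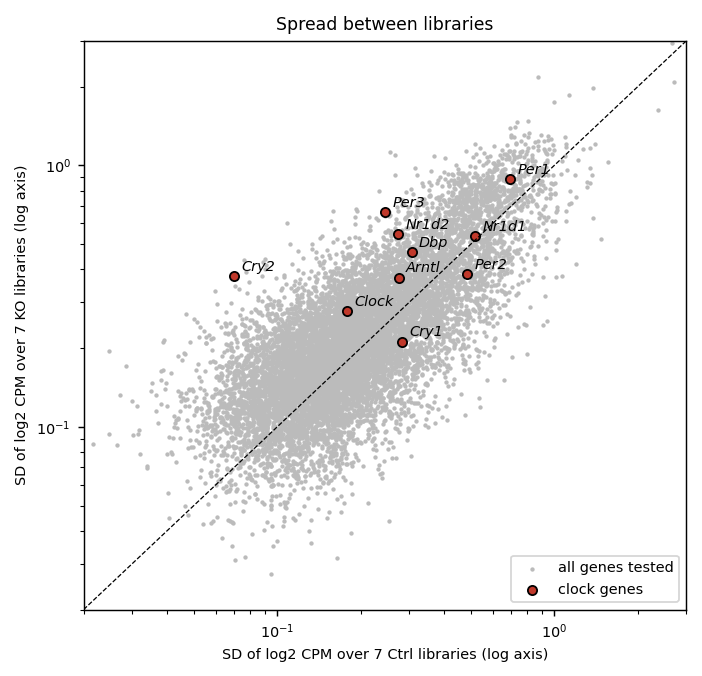
SD of log2 CPM over 7 KO libraries (y axis) against that over 7 Ctrl libraries (x axis), both on log axes, for all tested genes (grey) and the 10 clock genes (red); the dashed line marks equal spread. Cry2 lies farthest above the line among the clock genes, with a ratio of 5.39.

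Single libraries repeated across the set. KO replicate 1 was the highest KO library in 3 of the 10 clock genes and the lowest in 0. KO replicate 7 was the highest KO library in 2 (Arntl and Cry1) and the lowest in 4 (Per2, Per3, Nr1d2 and Dbp), and over the 21 clock genes and partners it was the highest in 4 and the lowest in 9. KO replicate 6 was the lowest in 6 of the 21 and the highest in 0. With the hour of collection not given, a library that differs in its clock and a library collected at another hour cannot be told apart. KO replicate 7 also stood apart in Rn45s, which is not a clock gene, with 1313 CPM against 594 to 856 CPM in the other KO libraries. It held 11064715 counts, the highest total of the KO libraries. The part of such wider differences in these tallies was not tested. Every gene has a highest and a lowest library in each group, so the tallies are descriptions without a test.

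Pairs of clock genes were correlated over the 7 libraries of each group, 90 relations in all, each with an exact two-sided permutation test over 5040 orders. None had a Benjamini-Hochberg adjusted p under 0.05 (the smallest was 0.174 by Pearson's r and 0.781 by Spearman's rho), and 7 had an unadjusted p under 0.05 by Pearson's r. In KO libraries Per3 and Cry2 had r = 0.96 (exact permutation p = 0.0056) and rho = 0.71 (exact permutation p = 0.088), and r was 0.75 without KO replicates 1 and 2. Per3 and Nr1d2 had r = 0.90 (exact permutation p = 0.0077) and rho = 0.89 (exact permutation p = 0.012) in KO libraries, and r was 0.79 without the same 2 libraries. Per3 and Dbp had r = 0.78 (exact permutation p = 0.043) and rho = 0.79 (exact permutation p = 0.048) in KO libraries, and r was 0.44 without those 2, so that this relation rests on them.

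Cry1 and Nr1d2 moved oppositely in both groups. Their r was -0.92 (exact permutation p = 0.0050, rho = -0.82, exact permutation p = 0.034) in KO libraries and -0.81 (exact permutation p = 0.031, rho = -0.71, exact permutation p = 0.088) in Ctrl libraries. It was -0.71 in KO libraries without KO replicates 4 and 7, the farthest from the median of Cry1, and -0.13 in Ctrl libraries without Ctrl replicates 2 and 5, so that in the Ctrl group it rests on those libraries. In Ctrl libraries Per1 and Dbp had r = -0.92 (exact permutation p = 0.0073, rho = -0.86, exact permutation p = 0.024), which was -0.85 without Ctrl replicates 1 and 2. Arntl and Per3 had r = -0.78 (exact permutation p = 0.031, rho = -0.57, exact permutation p = 0.20) in Ctrl libraries and -0.10 without Ctrl replicates 1 and 7, on which it rests. All 7 have an adjusted p of at least 0.174. Outside library indices 7 to 10 each group holds 5 libraries, under the minimum of 6 set for a correlation, so no values are given there. The values of r after 2 libraries are left out show only what a relation rests on.

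**Figure D5:**
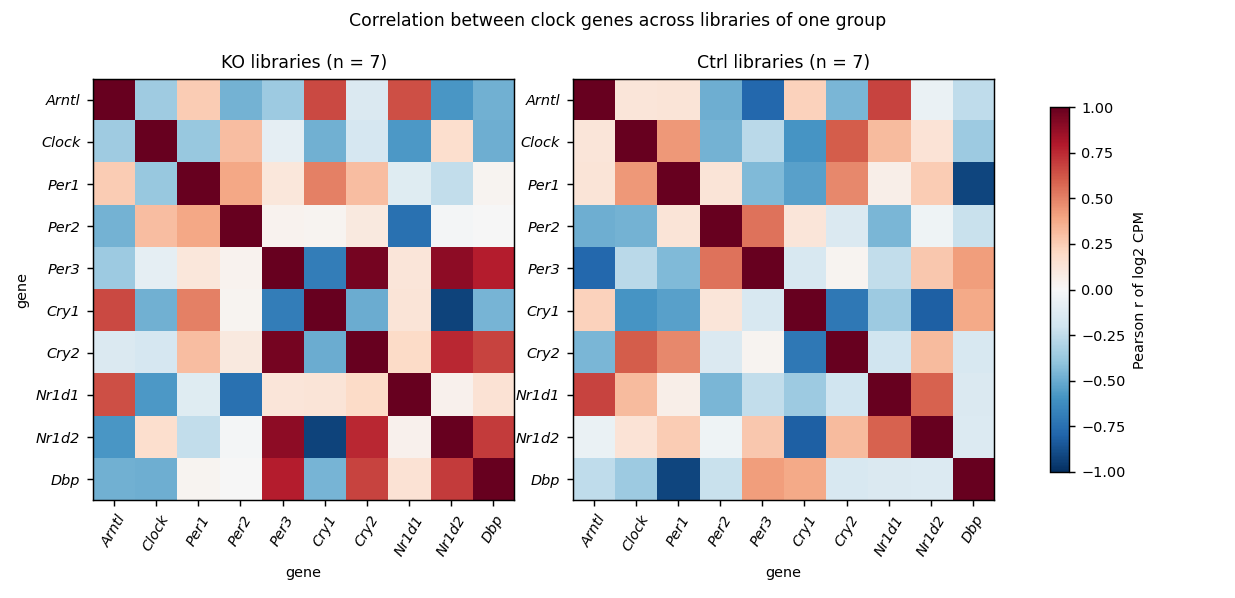
Pearson's r of log2 CPM between pairs of clock genes over 7 KO libraries (left) and 7 Ctrl libraries (right); red is positive and blue negative. Among KO libraries all pairs of Per3, Cry2, Nr1d2 and Dbp are red, with Cry1 and Nr1d1 placed between them. For Cry2, r was 0.75 with Nr1d2 and 0.68 with Dbp. Without KO replicates 1 and 2 these were 0.26 and 0.04. None of the 90 relations had an adjusted p under 0.05.

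On a scale per transcript length (RPKM, which is CPM per kilobase of exon), Cry1 had the highest level of the set over the 14 libraries, at 14.2 ± 2.60 RPKM, followed by Arntl at 12.1 ± 3.12 and Nr1d2 at 11.8 ± 3.29 RPKM (SD, n = 14). Cry2 was at 9.82 ± 2.01, Nr1d1 at 9.57 ± 3.25 and Clock at 6.30 ± 1.11 RPKM. Dbp stood at 4.09 ± 1.19, Per1 at 2.08 ± 1.11, Per3 at 1.38 ± 0.490 and Per2 at 0.736 ± 0.232 RPKM. The neighbours from Cry1 through Nr1d1 in this order differed by less than the larger SD of each pair, as did Per1 and Per3. The period genes were thus on average the least abundant genes of the set in these cells at the unknown hour of collection.

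The genes whose pattern was most like that of Arntl over the 14 libraries, after the mean of each group was taken off, were Rn45s (r = 0.913), Snrpb (0.906), Mrpl14 (0.901), Chchd10 (0.897) and Eri3 (0.883), out of 8566 genes with enough counts. The points share their libraries and depth, and KO replicate 7 stood apart in Arntl, Rn45s and Snrpb. Rn45s, the precursor of ribosomal RNA, was at 1313 CPM in KO replicate 7 and between 594 and 856 CPM in the other KO libraries, and the part of this in the level of Arntl was not tested. Those most like Dbp were Prkab1 (r = 0.907), Tmem51 (0.883), Clcn7 (0.861), Dhrs7c (0.852) and Il10rb (0.850). Of these, Prkab1, Dhrs7c and Il10rb fell in the KO group with log2 fold changes of -0.60, -0.53 and -0.43, while Clcn7 differed by 0.17. Clcn7 had an adjusted p of 0.047 (edgeR) and was not called with DESeq2 size factors (adjusted p = 0.053) or upper-quartile scaling (adjusted p = 0.064), nor in 9 of 14 fits that left out 1 library (adjusted p of 0.056 to 0.099).

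Of 21 tested genes that modify or degrade clock proteins, 5 fell and 1 rose, against 28.2% of all genes called in either direction, with a median log2 fold change of -0.07 (0.01 over all genes). Within library indices 7 to 10 alone the count was 1. The 5 were Fbxw7, a ubiquitin ligase subunit (-0.48, SE 0.0622), Nampt, the enzyme that limits NAD salvage (-0.35, SE 0.0949), Prkaa2, a catalytic subunit of AMP-activated kinase (-0.27, SE 0.0880), and the phosphatase genes Ppp5c (-0.26, SE 0.0672) and Ppp1cb (-0.21, SE 0.0647). Prkaa2 lost its call without any 1 of KO replicates 2, 3, 4 and 7 or Ctrl replicates 1, 2, 3 and 7 (adjusted p of 0.051 to 0.070, edgeR). Csnk1d, the casein kinase that phosphorylates PER proteins, rose by 0.20 (SE 0.0572). Fbxw7 was between 82.7 and 104 CPM in KO libraries and between 117 and 148 CPM in Ctrl libraries, without overlap. Of 9 tested genes linked to NAD and redox state, 5 fell and 0 rose, against 13.7% of all genes called lower, with a median of -0.21. The count was 2 within library indices 7 to 10 alone. Sirt3, a mitochondrial deacetylase, had 63.3 ± 8.42 CPM in KO libraries and 88.3 ± 5.99 CPM in Ctrl libraries (log2 fold change -0.48), and Nmnat1 (-0.40), Nmnat3 (-0.40), Nampt and Parp1 (-0.18) were the others. Parp1 lost its call without any 1 of KO replicates 4, 5, 6 and 7 or Ctrl replicates 1, 2, 3 and 7 (adjusted p of 0.051 to 0.087, edgeR).

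Genes known to follow the clock in heart or liver did not share a direction. Of 27 tested, 7 rose and 3 fell, against 14.5% of all genes called higher and 13.7% called lower, with a median log2 fold change of 0.06. Herpud1, which acts in the removal of proteins from the endoplasmic reticulum, had 303 ± 69.4 CPM in KO libraries and 178 ± 19.1 CPM in Ctrl libraries (log2 fold change 0.77), and Tspan4 had 18.0 ± 2.20 CPM in KO libraries and 11.5 ± 1.86 CPM in Ctrl libraries (0.65). Kcnip2, a subunit of the transient outward potassium channel with a known daily rhythm in the mouse heart, was between 56.6 and 93.0 CPM in KO libraries and between 87.2 and 133 CPM in Ctrl libraries (-0.61), and Hlf and Nampt were the other genes that fell.

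Glucocorticoids and cyclic AMP are inputs that reset the clock. Of 16 tested glucocorticoid response genes 2 rose and 0 fell, against the same 14.5% and 13.7%, with a median log2 fold change of 0.02. These were Mt2, with 6.53 ± 2.15 CPM in KO libraries and 2.90 ± 1.41 CPM in Ctrl libraries, and Fkbp5, with 13.4 ± 3.66 CPM in KO libraries and 9.46 ± 1.66 CPM in Ctrl libraries. Of 21 tested CREB and immediate early genes, 1 rose (Fosb) and 0 fell, against the same 14.5% and 13.7%, with a median of 0.03. Fosb had 6.04 ± 2.97 CPM in KO libraries and 2.36 ± 1.82 CPM in Ctrl libraries. Fosb lost its call without any 1 of KO replicates 1, 3, 4, 5 and 7 or Ctrl replicates 1, 3, 6 and 7 (adjusted p of 0.057 to 0.086, edgeR). Fkbp5 lost it without any 1 of KO replicates 4, 5 and 6 or Ctrl replicates 1, 2, 3 and 7 (adjusted p of 0.054 to 0.077, edgeR). Per1 itself, which both of these inputs are known to induce, was not called.

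The difference in effect between library indices 7 to 10 and the other libraries was tested as an interaction over all 11170 genes, and 0 genes were called (edgeR, with 339 genes at an unadjusted p under 0.05). It was also 0 with DESeq2 and with limma-voom. Within these 4 libraries Per3, Cry2 and Dbp had log2 fold changes of -0.76, -0.45 and -0.67, and among the other 10 of -0.36, -0.28 and -0.31, none of them called.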

How the data were processed

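Poly(A) RNA was measured in 14 libraries of sorted mouse cardiomyocytes, 7 KO and 7 Ctrl, grouped by the treatment in the labels. The deposited values are raw read counts, in whole numbers, for each gene. Per the submitters' processing notes, the tools named are STAR, featureCounts, DESeq2 and DESeq with build mm10; versions, annotation and the strand setting are not stated there. A second table of the authors gives their test; per the file headers, the mean signal per gene is the authors' mean of normalised counts, log2 is the authors' fold change on that scale, the score is the Wald statistic, and the p-values are given raw and adjusted. That table was used only where named.

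From the counts, edgeR 4.0.16 (R 4.3.3) was run with filterByExpr, TMM scaling, a quasi-likelihood F test (two-sided, no covariates) and Benjamini-Hochberg adjustment over 11170 genes, with calls at an adjusted p under 0.05. CPM used TMM-scaled library sizes, log2 CPM a prior count of 2, and RPKM the exon length in the file. The biological coefficient of variation was 16.2%. No pair of libraries of the same group agreed within sampling noise (chi-square per degree of freedom of 4.58 to 26.9). Alternatives were DESeq2 1.42.0, limma-voom (limma 3.58.1), other scalings and filters, a replicate block, a library index term, both index subsets and leaving out each library. The procedure was tested on simulated data. SMART-Seq reads carry no molecular identifiers. The files had 0 unmapped columns and 0 rows without a gene name.

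The 10 members, the lists and the tests were chosen with earlier results of these data known. The named genes were the members, Ryr2, all tested partners, in each other list up to 4 genes of smallest p (more where at most 5 were called), and the 5 genes most like Arntl and Dbp. One further gene of the loop is not reported here. Among the marker genes, Emr1 is the symbol in the table for Adgre1.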

Additional observations from a re-analysis of the deposited data

Results flagged for a closer look

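Within a group of 7 libraries a value was set apart when its gap to the nearest other library exceeded 0.568 of the whole range (Dixon's 95% limit). Of 132 groups examined 5 were set apart, and chance alone sets apart about 1 in 20. Among the 20 groups of the clock genes there was 1. Arntl was at 60.9 CPM in KO replicate 7, against 28.9 to 34.0 CPM in the other KO libraries. Rn45s was at 1313 CPM in the same library, against 594 to 856 CPM in the other KO libraries. Snrpb was at 196 CPM there, against 147 to 163 CPM. Both are among the genes with a pattern like that of Arntl, so these 3 are not independent. Angptl4 was at 80.0 CPM in Ctrl replicate 2, against 4.83 to 32.1 CPM in the other Ctrl libraries. Acta2 was at 477 CPM in Ctrl replicate 2, against 675 to 807 CPM.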

How the results depend on the processing

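The count of clock genes called was 0 in the fit as reported, 1 with limma-voom and 1 with the replicate block (Cry2 in both, with log2 fold changes of -0.37 and -0.34 and adjusted p of 0.040 and 0.023). It ranged from 0 to 2 when single libraries were left out, with 2 without KO replicate 1 (Per3 and Cry2), 1 without KO replicate 2 (Cry2) and 1 without Ctrl replicate 2 (Cry1). Over the whole table the 3149 calls became 2743 to 3173 with a library left out, and 1466 within library indices 7 to 10, where fewer libraries were fitted. The replicate block gave 3770 calls. Same-numbered libraries correlated at r of 0.061 to 0.533 and 3 of 14 correlated best with their own number, so the numbers were not taken as pairs. The signs of some differences that were not called turned. With limma-voom the log2 fold changes were 0.055 for Per2, -0.029 for Nr1d2, -0.015 for Timeless, -0.00192 for Chchd10 and -0.026 for Tmem51, and with the replicate block -0.000348 for Nr1d2 and -0.000198 for Chchd10. Among the 10 libraries outside the indices they were -0.091 for Timeless and -0.14 for Ppard. Within the 4 they were -0.048 for Arntl, 0.016 for Per1, 0.090 for Per2, -0.084 for Rorb, -0.084 for Bhlhe41, -0.32 for Nfil3, -0.16 for Chchd10 and -0.11 for Tmem51. With single libraries left out the log2 fold changes spanned -0.15 to 0.11 for Arntl, -0.15 to 0.13 for Per2, -0.064 to 0.16 for Nr1d2, -0.10 to 0.29 for Nfil3, -0.12 to 0.28 for Timeless, -0.011 to 0.22 for Ppard, -0.11 to 0.089 for Chchd10 and -0.045 to 0.089 for Tmem51. In each of these cases the cause was not tested. Clock, Per3, Cry1, Cry2, Nr1d1, Dbp and Hlf kept their direction in all 24 alternatives. The count of called macrophage markers ranged from 1 to 9, of called fibroblast markers from 0 to 6 and of called endothelial markers from 0 to 4 (the replicate block gave 5 fibroblast and 2 endothelial markers). Among the 10 clock genes Per2 had the lowest mean CPM, with counts of 20 to 53 per library. The lowest single count was 19, for Per1 in KO replicate 6.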
